A study of Mus musculus with 6 samples.

Results

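The genes described here encode aminoacyl-tRNA synthetases, the enzymes that load each amino acid onto its transfer RNA, measured in stem cells of mice that ate no serine or glycine. They were chosen by name: 20 genes for the enzymes of the cytosol and 16 for those of the mitochondrion, whose symbols end in 2. All 36 were found among the 21878 genes listed and all 36 passed the filter on low values, among 10620 genes tested. RNA was sequenced from long-term hematopoietic stem cells (LT-HSCs), the rare marrow cells that renew the blood for life, sorted from mouse bone marrow as Lin-, c-Kit+, Sca1+, CD34- and CD135-. The mice were WT and had eaten the serine/glycine-free diet (SGFD) or the control diet (CD) for 3 months, with 3 libraries per diet. Strain, age, sex and the number of mice are not given in the labels. Nor do they say if each library stands for 1 mouse or for pooled mice; a p-value here therefore reflects library-to-library spread alone, which may be technical.

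Each synthetase joins its amino acid to the matching tRNA at the cost of ATP, and the ribosome then uses the charged tRNA. The cytosol and the mitochondrion have separate sets of these enzymes, almost all from separate nuclear genes; Gars and Kars are exceptions, since each makes both forms. Sars and Sars2 encode the seryl-tRNA synthetases of the cytosol and the mitochondrion, and Gars encodes the glycyl-tRNA synthetase, so these are the enzymes whose substrates the diet left out. When an amino acid runs short, its tRNA stays uncharged, which in mammals can activate the kinase GCN2, slow translation initiation and raise the transcription factor ATF4, and ATF4 is known to activate several cytosolic synthetase genes.

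Expression values were taken as FPKM, that is, fragments corrected for gene length and for sequencing depth. Under that reading, levels of different genes can be set side by side. Whole fragments recovered from the values came to between 18684130 and 19846935 per library, and each member had between 104 and 6449 fragments in a library. The sorted populations differed between the diets in markers of other cell types. The 10 LT-HSC markers summed to between 87.4 and 88.8 FPKM with SGFD and between 187.6 and 192 FPKM with CD, and 7 of the 9 tested fell; Hlf, a transcription factor of this state, was at 21.9 ± 0.779 FPKM with SGFD and 56.2 ± 0.759 FPKM with CD (SD, n = 3 each). The 10 granulocyte and monocyte progenitor markers summed to between 3564 and 3962 FPKM with SGFD and between 885 and 914 FPKM with CD, and 10 of 10 rose, 2 of which passed the low-value filter through the SGFD libraries only. Macrophage markers summed to between 1.10 and 1.62 FPKM with SGFD and between 8.08 and 9.70 FPKM with CD, and 4 of 4 tested fell, having passed the filter through the CD libraries only. Erythroid markers summed to between 8.57 and 12.2 FPKM with SGFD and between 23.7 and 25.7 FPKM with CD, and B cell markers to between 24.6 and 25.2 FPKM with SGFD and between 25.6 and 32.6 FPKM with CD. Of 12 immediate early genes, which respond quickly to handling as well as to signals, 11 were tested and 11 rose, with sums between 4485 and 5061 FPKM with SGFD and between 2779 and 2970 FPKM with CD. For comparison, 17.7% of all tested genes rose and 41.8% fell. In the highest of 10 bins by expression level, where genes such as Fos lie, 61.8% rose. None of the listed markers was at 0 in all libraries. The part of these cells in the results was not tested, and in bulk samples fewer cells of a type and less RNA per cell cannot be told apart.

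With SGFD, transcripts of most cytosolic synthetases were modestly higher than with CD, while those of the mitochondrial synthetases went in both directions. Of the 20 cytosolic genes, 14 rose, 0 fell and 6 did not pass the test (limma on log2(FPKM + 1), Benjamini-Hochberg adjusted over all tested genes, threshold 0.05). Of the 16 mitochondrial genes, 4 rose, 4 fell and 8 did not pass. Among all 10620 tested genes, 17.7% rose and 41.8% fell, which is 59.4% called in either direction. The median log2 fold change was 0.17 over the cytosolic genes, with a range from -0.05 to 0.41, and -0.08 over the mitochondrial genes, with a range from -0.47 to 0.31, against -0.13 over all tested genes; after median-ratio scaling or quantile normalization the mitochondrial median turned positive, at 0.03 and 0.13. All 3 SGFD values lay above all 3 CD values for 14 cytosolic and 4 mitochondrial genes, an order seen in 19.6% of all tested genes, and all below for 0 cytosolic and 5 mitochondrial genes, seen in 45.5% of all tested genes.

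**Figure D1:**
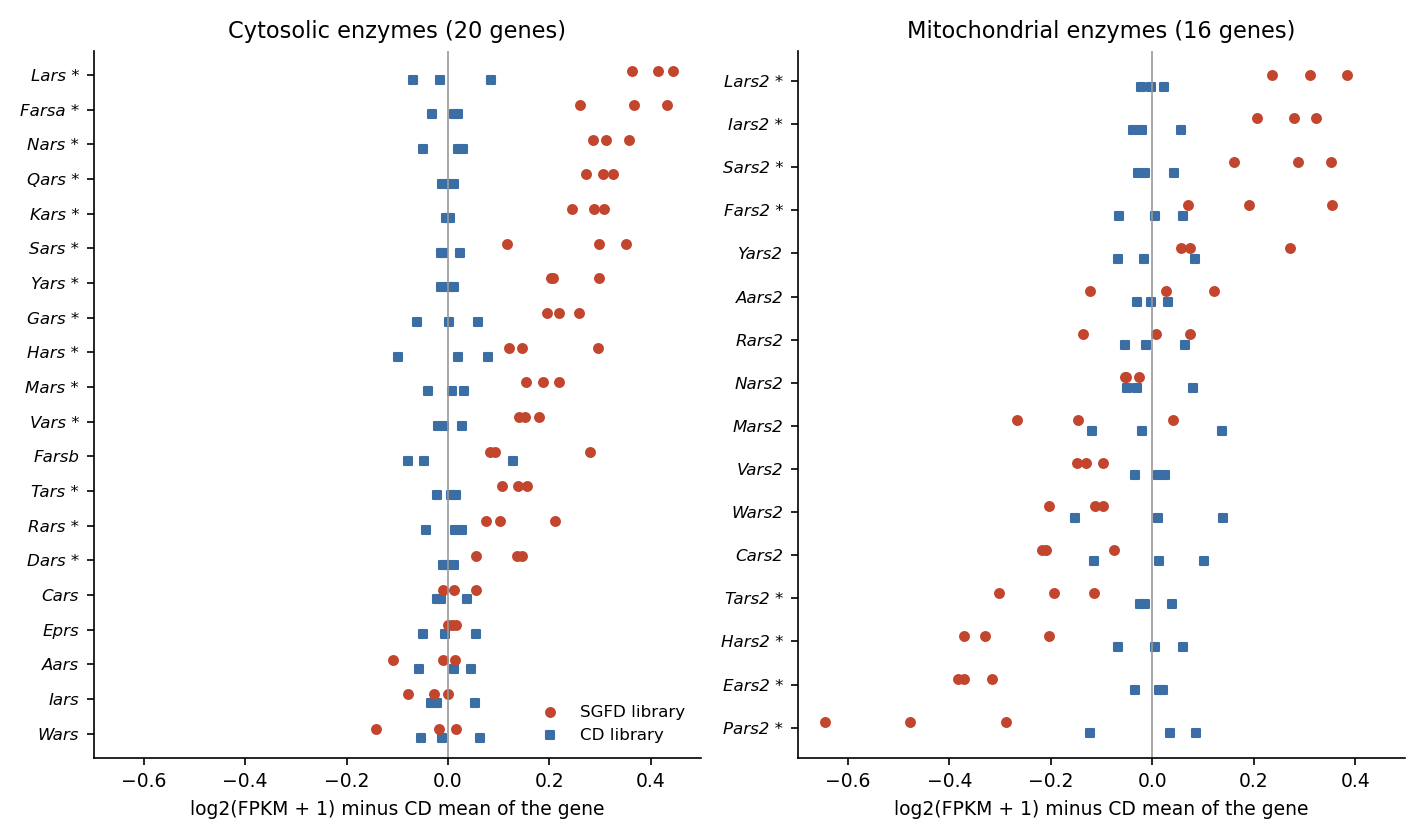
Level of each of the 36 synthetase genes in every library as log2(FPKM + 1) minus the mean of the 3 CD libraries of that gene, with SGFD libraries as circles, CD libraries as squares and a star at genes that passed the test. SGFD points lie wholly right of CD points for 18 genes, wholly left for 5 and overlap for 13.

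As totals, the 20 cytosolic genes summed to 1190, 1145 and 1207 FPKM in SGFD libraries, against 1027, 1041 and 1021 FPKM in CD libraries. These sums did not overlap, and the mean with SGFD was 1.147 times that with CD. The 16 mitochondrial genes summed to 198, 195 and 197 FPKM in SGFD libraries and to 196, 189 and 193 FPKM in CD libraries, sums that overlap and whose means differ by a ratio of 1.023. FPKM over all genes summed to between 464222 and 485048 with SGFD and to between 427769 and 433592 with CD. As a share of each library's total FPKM, the cytosolic genes held 2.49 ± 0.0191 per mille with SGFD and 2.40 ± 0.00795 per mille with CD, and the mitochondrial genes 0.415 ± 0.00748 per mille with SGFD and 0.448 ± 0.0116 per mille with CD (SD, n = 3 each). By this measure the cytosolic shares were higher and the mitochondrial shares lower with SGFD.

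The 3 genes whose enzymes use serine or glycine all rose with SGFD, where 17.7% of all tested genes rose. Sars, the cytosolic seryl-tRNA synthetase, was at 39.7, 34.9 and 41.2 FPKM in SGFD libraries and at 31.8, 32.7 and 31.9 FPKM in CD libraries. The lowest SGFD value, replicate 2, lay close to the CD values, and the groups did not overlap. The log2 fold change was 0.255 ± 0.06 (SE; limma, adjusted p = 0.00486), with a mean of 38.6 ± 3.31 FPKM with SGFD and 32.1 ± 0.480 FPKM with CD (SD, n = 3 each). Sars2, the mitochondrial seryl-tRNA synthetase, was at 15.4, 13.4 and 14.7 FPKM in SGFD libraries and at 12.2, 11.7 and 11.6 FPKM in CD libraries. Again replicate 2 was the lowest of the SGFD libraries and the groups stood apart. Its log2 fold change was 0.27 ± 0.07 (adjusted p = 0.00629, limma). Gars, which serves both compartments, was at 72.4, 71.2 and 74.5 FPKM in SGFD libraries and at 62.2, 59.4 and 64.7 FPKM in CD libraries. All SGFD values exceeded all CD values, with a log2 fold change of 0.22 ± 0.04 (adjusted p = 0.00173, limma). All 3 calls held in each of the 15 alternatives. In the mouse genome GRCm38.p6, Sars lies on chromosome 3 from 108424864 to 108445259, Sars2 on chromosome 7 from 28741957 to 28753879 and Gars on chromosome 6 from 55038001 to 55079504.

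Of the other 33 synthetases, 15 rose and 4 fell, against 17.7% and 41.8% of all tested genes. The median log2 fold change of these 33 was 0.11, against 0.255 for the serine and glycine enzymes. The 33 comprise 18 cytosolic and 15 mitochondrial genes, whose medians are given separately below. Per library, the mean log2(FPKM + 1) of the serine and glycine enzymes minus that of the other 33 was 0.55, 0.44 and 0.55 with SGFD and 0.33, 0.30 and 0.34 with CD. The SGFD differences all lay above the CD differences. Among single tested genes this order was seen in 19.6%, and its share among differences between other sets of genes was not computed. The rise of these 3 genes was not the largest of the family: ordered by log2 fold change among the 36, Sars2 came at place 8, Sars at place 9 and Gars at place 11, all behind enzymes for leucine, phenylalanine, asparagine, glutamine, lysine and isoleucine. Setting aside Sars and Gars, 12 of the 18 other cytosolic genes rose, with a median of 0.15. Setting aside Sars2, 3 of the 15 other mitochondrial genes rose and 4 fell, with a median of -0.12. The ratio of Sars to Sars2 FPKM was 2.58, 2.61 and 2.81 with SGFD and 2.60, 2.79 and 2.75 with CD. These ratios overlapped, with a mean of 2.67 ± 0.123 with SGFD and 2.72 ± 0.0988 with CD.

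**Figure D2:**
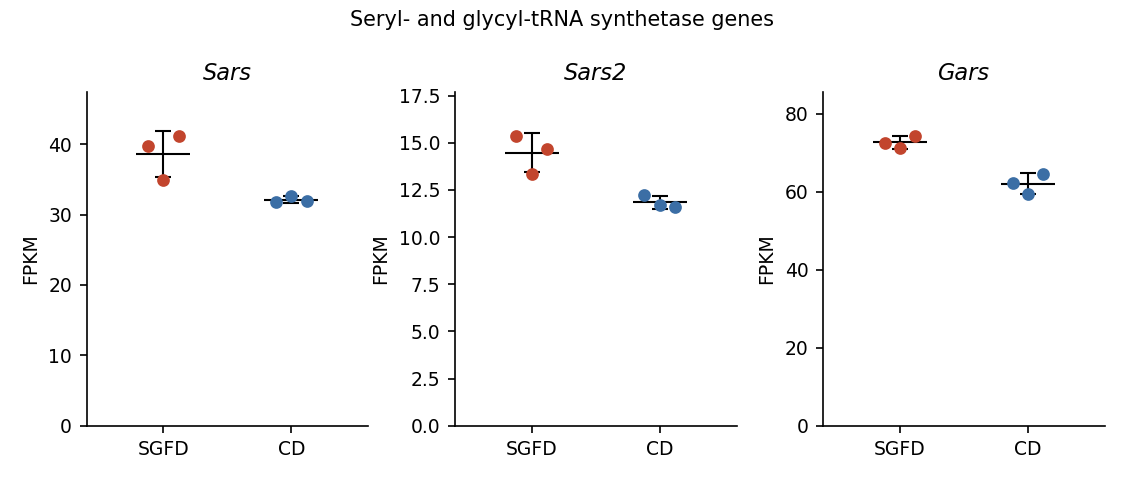
FPKM of Sars, Sars2 and Gars in each library, SGFD left of CD, with the mean and SD over 3 libraries. In each of the 3 genes every SGFD point lies above every CD point, and SGFD replicate 2 is the lowest SGFD point.

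The largest rises among the cytosolic enzymes were in Lars, Farsa, Nars, Qars, Kars and Sars. Lars, the leucyl-tRNA synthetase, which is also known as a leucine sensor upstream of mTORC1, was at 46.1, 43.5 and 45.1 FPKM in SGFD libraries and at 33.2, 35.7 and 32.0 FPKM in CD libraries. Its groups were well separated, with a ratio of mean FPKM of 1.33 and a log2 fold change of 0.41 ± 0.05 (adjusted p = 0.000118, limma). Farsa, the catalytic alpha subunit of phenylalanyl-tRNA synthetase, was at 93.6, 83.0 and 89.5 FPKM with SGFD and at 70.2, 67.6 and 69.8 FPKM with CD. SGFD replicate 2 was again the lowest of its group, the groups did not overlap, and the log2 fold change was 0.35 ± 0.05 (adjusted p = 0.0002, limma). Nars, for asparagine, was at 102, 97.0 and 98.8 FPKM with SGFD and at 76.8, 81.1 and 80.5 FPKM with CD, groups that lay apart by a log2 fold change of 0.32 ± 0.04 (adjusted p = 0.000134, limma). Asparagine is the product of Asns, an ATF4 target described further on.

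Qars, for glutamine, was at 79.3, 77.5 and 80.5 FPKM with SGFD and at 64.0, 64.6 and 63.5 FPKM with CD. The spread within each diet was small beside the gap, and the log2 fold change was 0.30 ± 0.04 (adjusted p = 0.000127, limma). Kars, for lysine, the most abundant synthetase transcript of the set in both diets, was at 134, 130.4 and 136 FPKM with SGFD and at 109.6, 110.3 and 109.9 FPKM with CD. Its 3 CD values lay within 1 FPKM of each other and below every SGFD value, with a log2 fold change of 0.28 ± 0.04 (adjusted p = 0.000145, limma). On GRCm38.p6, Farsa lies on chromosome 8 from 84856969 to 84869257, Kars on chromosome 8 from 111993439 to 112011354 and Lars on chromosome 18 from 42202298 to 42262237. Among the cytosolic genes that rose, Yars, for tyrosine, had a log2 fold change of 0.24 (adjusted p = 0.00216), Mars, for methionine, 0.19 (0.00733), and Vars, for valine, 0.16 (0.00459). The call of Vars was lost after quantile normalization (0.02, adjusted p = 0.676). Hars, Tars, Rars and Dars, for histidine, threonine, arginine and aspartate, rose by 0.19, 0.13, 0.13 and 0.11, with adjusted p-values of 0.0215, 0.02, 0.0383 and 0.0349.

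The calls of Hars, Tars, Rars and Dars were each lost in more than 1 of the settings that left out a library. All 4 were also lost after quantile normalization. Among all tested genes, 1875 rose with every library, and between 1596 and 1922 rose with 1 left out. The call of Hars was lost without CD replicate 3 (adjusted p = 0.0957) or without SGFD replicate 3 (0.0718), and that of Tars without CD replicate 1 (0.0577) or 3 (0.0744). Rars lost its call without CD replicate 1, 2 or 3 or SGFD replicate 3, with adjusted p-values between 0.062 and 0.14, and Dars without any 1 library other than SGFD replicate 2, with values between 0.0717 and 0.112. The counts of 14 cytosolic rises and 0 falls became 10 to 14 rises and 0 falls with 1 library left out.

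Aars, Iars and Wars were the 3 cytosolic genes with a fold change below 0, and none passed the test. Aars, for alanine, was at 25.9, 24.2 and 26.4 FPKM with SGFD and at 27.0, 26.4 and 25.1 FPKM with CD. Iars, for isoleucine, was at 39.0, 36.9 and 38.2 FPKM with SGFD and at 38.4, 40.5 and 38.1 FPKM with CD. Wars, for tryptophan, a gene also known to be induced by interferon, was at 38.1, 34.8 and 39.0 FPKM with SGFD and at 38.2, 40.3 and 37.1 FPKM with CD. In all 3 genes the groups overlapped, with log2 fold changes of -0.04 ± 0.05, -0.04 ± 0.05 and -0.05 ± 0.06 and adjusted p-values of 0.594, 0.527 and 0.475 in the order Aars, Iars and Wars. Eprs, for glutamate and proline, at 0.01 ± 0.04 (adjusted p = 0.883), Cars, for cysteine, at 0.02 ± 0.06 (0.799), and Farsb, the beta subunit of phenylalanyl-tRNA synthetase, at 0.15 ± 0.07 (0.0863) also did not pass. Farsb passed without CD replicate 2 (log2 fold change 0.21, adjusted p = 0.0268, limma). Its partner Farsa passed in every alternative.

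Among the mitochondrial enzymes, Lars2, Iars2 and Sars2 had the largest rises. Lars2, for leucine, was at 21.1, 20.02 and 22.3 FPKM in SGFD libraries and at 16.8, 17.2 and 16.6 FPKM in CD libraries. The groups did not overlap, and the log2 fold change was 0.31 ± 0.06 (adjusted p = 0.00111, limma). Iars2, for isoleucine, was at 33.5, 34.5 and 31.8 FPKM with SGFD and at 28.6, 26.7 and 27.0 FPKM with CD. All SGFD values were above all CD values, with a log2 fold change of 0.27 ± 0.05 (adjusted p = 0.00138, limma), while its cytosolic counterpart Iars did not pass. Fars2, for phenylalanine, the fourth that rose, was at 0.21 ± 0.08 (adjusted p = 0.0455) and lost its call without any 1 library other than SGFD replicate 2, with adjusted p-values between 0.0586 and 0.186.

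The largest falls were in Pars2, Ears2 and Hars2. Pars2, the mitochondrial prolyl-tRNA synthetase, was at 1.72, 2.48 and 2.05 FPKM in SGFD libraries and at 2.91, 3.36 and 3.52 FPKM in CD libraries. It was the least abundant member with SGFD, behind 104 to 208 fragments per library, and its groups did not overlap. The mean was 2.09 ± 0.382 FPKM with SGFD and 3.26 ± 0.316 FPKM with CD (SD, n = 3 each), a ratio of 0.640 and a log2 fold change of -0.47 ± 0.11 (adjusted p = 0.004, limma). Ears2, for glutamate, was at 2.20, 2.08 and 2.05 FPKM with SGFD and at 3.02, 2.89 and 3.04 FPKM with CD. Both diets had a narrow spread and stood apart, with a ratio of mean FPKM of 0.707 and a log2 fold change of -0.36 ± 0.08 (adjusted p = 0.00387, limma). Hars2, for histidine, was at 10.8, 11.9 and 10.5 FPKM with SGFD and at 13.9, 13.2 and 14.5 FPKM with CD, without overlap and with a log2 fold change of -0.30 ± 0.07 (adjusted p = 0.00368, limma). After quantile normalization none of these 3 falls passed (Pars2 0.133, Ears2 0.398, Hars2 0.0772).

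Tars2, for threonine, was the fourth mitochondrial gene that fell, at 14.0, 16.1 and 15.1 FPKM with SGFD and at 17.3, 17.96 and 17.2 FPKM with CD. Its values did not overlap and its log2 fold change was -0.20 ± 0.06 (adjusted p = 0.0179, limma), but the call was lost without CD replicate 2 (0.0652) or SGFD replicate 1 (0.0773) and under both other scalings of the libraries. Vars2, for valine, lay lower in all SGFD libraries than in any CD library and did not pass (-0.12 ± 0.06, adjusted p = 0.0844). Cars2, for cysteine, stood at -0.17 ± 0.07 and did not pass (adjusted p = 0.0566), but passed without CD replicate 2 (0.0244) or SGFD replicate 3 (0.0264). The 6 others, Yars2, Aars2, Rars2, Nars2, Mars2 and Wars2, had log2 fold changes between -0.14 and 0.13 and did not pass. Without 1 library, 3 to 4 mitochondrial genes rose and 3 to 5 fell.

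Within an amino acid, the cytosolic enzyme was compared with its mitochondrial counterpart as a difference of log2(FPKM + 1) in each library, over 17 pairs. This difference was higher on average with SGFD than with CD in 13 of the 17 pairs. All SGFD values lay above all CD values in 8 of the 17, all below in 1, and overlapped in 8. Among single tested genes these separations were seen in 19.6% (above) and 45.5% (below). Their share among pairs of other genes of unlike level was not computed. Eprs and Fars2 each stand in more than 1 pair. The pairs were not compared after quantile normalization, under which the cytosolic and mitochondrial medians differed by 0.001. With 3 libraries against 3, the exact two-sided permutation test cannot go below p = 0.1, and the smallest value adjusted over the 17 pairs was 0.189, so no pair could pass. The largest shift towards the cytosolic enzyme was in Hars against Hars2, at 0.49, followed by Eprs against Pars2 at 0.48, Eprs against Ears2 at 0.37 and Nars against Nars2 at 0.36. The Hars and Hars2 genes lie head to head on chromosome 18 and share 4 bases, from 36783202 to 36783205 on GRCm38.p6; how reads were counted there by strand is not given in the sources used here. In Iars against Iars2 the difference was 0.19 ± 0.09 with SGFD and 0.49 ± 0.09 with CD (SD, n = 3 each), the 1 pair with all SGFD values below the CD values. In Sars against Sars2 it was 1.36 ± 0.07 with SGFD and 1.37 ± 0.05 with CD, and the groups overlapped (exact p = 1).

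**Figure D3:**
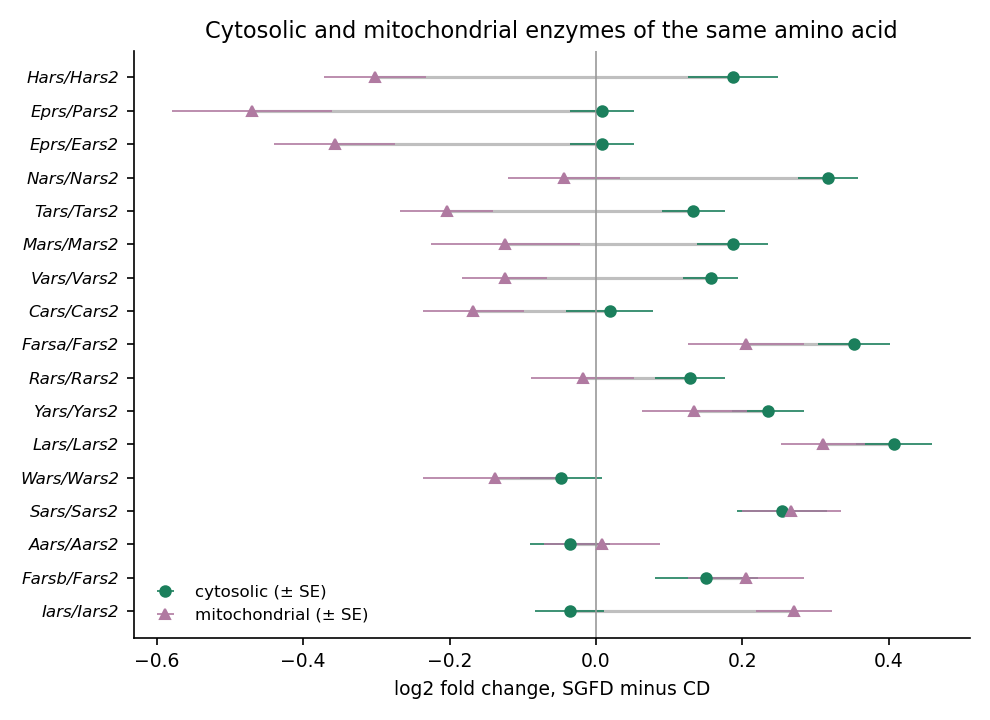
Fitted log2 fold change (SGFD minus CD, bars are SE) of the cytosolic enzyme (circle) and the mitochondrial enzyme (triangle) of the same amino acid for 17 pairs, with a grey line between them. The circle lies right of the triangle in 13 pairs; Hars and Hars2 are farthest apart, Sars and Sars2 nearly coincide, and in Iars and Iars2 the order is the opposite one.

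The cytosolic and mitochondrial genes also differed in expression level, and log2 fold changes of all genes moved with level. The median over genes of the mean FPKM was 47.3 with SGFD and 44.5 with CD for cytosolic genes, and 13.2 with SGFD and 12.8 with CD for mitochondrial genes. When all tested genes were divided into 10 equal bins by mean log2 level, genes of the highest bin had a median log2 fold change of 0.18, and 61.8% of them rose, while those of the second lowest had -0.31, and 55.5% fell. In the 3 highest bins lay 19 of 20 cytosolic genes and 1 of 16 mitochondrial genes. Within the highest bin, 7 of 7 cytosolic genes rose; in the next, 4 of 7 rose against 33.7% of all genes there; and in the one after it, 3 of 5 rose against 21.2%. Of the mitochondrial genes, 6 lay in the sixth bin from the bottom, of which 2 rose and 2 fell, where 11.6% of all genes rose and 42.3% fell.

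Compared with the median of their own level bin, 14 of 20 cytosolic genes lay above it, with a median difference of 0.11, and 11 of 16 mitochondrial genes, with a median difference of 0.17. Sars lay 0.28, Sars2 0.41 and Gars 0.04 above the median of its bin. Vars lay 0.02 and Dars 0.07 below it although both rose, and Lars and Lars2 lay 0.37 and 0.41 above it. The cytosolic median minus the mitochondrial median was 0.26 as deposited, 0.27 after median-ratio scaling and 0.001 after quantile normalization, which gives all libraries 1 distribution. After quantile normalization 10 cytosolic genes rose and 0 fell, and 7 mitochondrial genes rose and 0 fell. Both scalings moved the median of all tested genes from -0.13 to -0.02. Relative to it, the cytosolic median stood 0.30 higher as deposited, 0.31 after median-ratio scaling and 0.15 after quantile normalization, and the mitochondrial median 0.05, 0.04 and 0.15 higher under the same settings. So the direction of the mitochondrial set and its distance from the cytosolic set depended on the scaling, while Sars, Sars2 and Gars passed as higher under all 3 scalings. The sizes of their rises moved: Gars stood at 0.22 as deposited, 0.35 after median-ratio scaling and 0.13 after quantile normalization (adjusted p = 0.0304), and Sars2 at 0.27, 0.38 and 0.41 under the same settings. The fold change of all genes also fell with the gene length that the values imply, with a median of 0.17 in the bin of shortest genes and -0.39 in the bin of longest; the median implied length was 2662 bases for cytosolic and 3654 bases for mitochondrial genes, and 20 of 20 cytosolic and 10 of 16 mitochondrial genes lay above the median of their length bin.

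Synthetases fall into structural and functional groups, whose counts stand beside the 17.7% that rose and 41.8% that fell among all tested genes. In mammals, 8 of these genes encode the enzymes of the multisynthetase complex, of which 6 rose (median log2 fold change 0.16), and of the 12 outside it 8 rose, with a median of 0.17. The median of the complex was 0.28 after median-ratio scaling and 0.09 after quantile normalization. Aimp1, a scaffold protein of the complex, was at 77.8, 75.7 and 80.3 FPKM in SGFD libraries and at 67.6, 63.8 and 62.9 FPKM in CD libraries. Its groups did not overlap, with a log2 fold change of 0.26 ± 0.04 (adjusted p = 0.000643, limma). The scaffold gene Aimp2 rose by 0.21 ± 0.07 (adjusted p = 0.029). This call did not survive leaving out either CD replicate 1 (0.072) or 3 (0.0965), or SGFD replicate 1 (0.119) or 3 (0.0533). The third scaffold gene, Eef1e1, did not pass (0.13, adjusted p = 0.0995). By the 2 classes of catalytic fold, which evolved separately, and with cytosolic and mitochondrial genes together, 8 of 18 class I genes rose and 1 fell, with a median of 0.07, and 10 of 17 class II genes rose and 3 fell, with a median of 0.15. Eprs, for glutamate and proline, was counted in neither class. Without CD replicate 3, 6 class II genes rose, and without CD replicate 2 or SGFD replicate 3, 2 class I genes fell. Aarsd1, which encodes a protein that edits mischarged alanine tRNA, was the 1 gene of 6 synthetase homologs and editing factors that rose. It was at 54.6 ± 2.52 FPKM with SGFD and 40.6 ± 2.94 FPKM with CD (log2 fold change 0.42, adjusted p = 0.000213, limma). Without SGFD replicate 1 or 2, 2 genes of that list rose.

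ATF4, through the response to uncharged tRNA, is the known activator of many cytosolic synthetase genes and binds a composite site with C/EBP factors. The gene for the sensor of uncharged tRNA itself was lower: Eif2ak4, which encodes GCN2, was at 9.92, 11.7 and 10.03 FPKM in SGFD libraries and at 14.2, 14.3 and 14.4 FPKM in CD libraries. These groups did not overlap, with a log2 fold change of -0.41 ± 0.07 (adjusted p = 0.000756, limma). Gcn1l1, whose product activates GCN2 on ribosomes, was at 20.8 ± 0.690 FPKM with SGFD and 26.2 ± 0.183 FPKM with CD (adjusted p = 0.000412), and Impact, whose product competes with GCN2 for GCN1, at 4.202 ± 0.870 FPKM with SGFD and 6.29 ± 0.156 FPKM with CD (adjusted p = 0.00297). Asns, asparagine synthetase, a classical ATF4 target that is not a tRNA synthetase, was at 14.8, 13.7 and 16.8 FPKM in SGFD libraries and at 6.84, 6.13 and 6.39 FPKM in CD libraries. It was more than doubled in each SGFD library relative to the CD mean, with a log2 fold change of 1.11 ± 0.08 (adjusted p = 4.04e-06, limma). Of the 10 tested genes of the list on tRNA sensing and ATF4, 4 rose and 3 fell. These are 40% and 30% of the list, against 17.7% and 41.8% of all tested genes. Besides Asns, the rises were Atf5 (0.52, adjusted p = 0.000339, limma), Eif2s1 (0.20, 0.00197) and Atf4 itself (0.28, 0.0199). The call of Atf4 was lost without CD replicate 1 (0.054) or 2 (0.0795) and after quantile normalization (0.12, 0.373). It was also lost without the low-value filter (limma, adjusted p = 0.0704) and without the trend and robust settings (0.0543). Of the other ATF4-linked genes of the list, Trib3 at -0.26 (adjusted p = 0.0779), Sesn2 at -0.11 (0.335) and Ddit3 at 0.22 (0.213) did not pass, and Chac1 was not tested.

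Of the 13 cytosolic synthetases commonly listed as ATF4 targets, 8 rose (median log2 fold change 0.16), against 17.7% of all tested genes. Of the 7 others, 6 rose, with a median of 0.19, and 3 did without CD replicate 3 or without SGFD replicate 3. RefSeq promoters, from 250 bases before to 50 after 1 start site per gene on GRCm38.p6, were matched for 27 of the 36 members and were searched on both strands for the letters TGATGNAA, the core of the ATF4 composite site. The motif was in 5 of 13 cytosolic promoters (38.5%) and 0 of 14 mitochondrial promoters, against 215 of the 8280 tested genes with a promoter (2.6%). All 5 were among the 8 promoters of the listed ATF4 targets, and 0 were among the 5 others. With the narrower letters TGATGCAA, 4 of 13 cytosolic promoters (30.8%) and 0.7% of tested genes had a match. Of the 5 genes with a match, Gars, Yars and Tars rose, and Aars and Iars did not pass the test. Tars lost its call in 2 of the settings that leave out a library, as given above.

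The promoter windows below run from 130 bases before to 20 after the start site that the promoter table uses, 5′ to 3′ on the strand of the gene, with matches to TGATGNAA or its reverse complement in capitals. They are shown for the 5 synthetases with a match, for Asns as the strongest riser of the ATF4 list, and for Sars and Sars2, the seryl-tRNA synthetases, in which these letters are not found in this window.
Gars: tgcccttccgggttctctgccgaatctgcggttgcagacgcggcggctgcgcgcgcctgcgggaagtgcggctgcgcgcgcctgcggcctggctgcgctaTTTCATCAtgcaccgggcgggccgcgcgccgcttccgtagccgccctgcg
Yars: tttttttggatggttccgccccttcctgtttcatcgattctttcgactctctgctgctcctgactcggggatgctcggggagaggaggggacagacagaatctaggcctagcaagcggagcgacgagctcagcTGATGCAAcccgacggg
Tars: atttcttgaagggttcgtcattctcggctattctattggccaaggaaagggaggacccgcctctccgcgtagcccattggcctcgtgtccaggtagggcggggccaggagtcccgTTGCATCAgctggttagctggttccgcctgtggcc
Aars: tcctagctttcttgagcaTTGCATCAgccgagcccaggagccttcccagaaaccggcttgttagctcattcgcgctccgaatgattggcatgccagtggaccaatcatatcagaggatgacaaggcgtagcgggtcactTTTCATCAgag
Iars: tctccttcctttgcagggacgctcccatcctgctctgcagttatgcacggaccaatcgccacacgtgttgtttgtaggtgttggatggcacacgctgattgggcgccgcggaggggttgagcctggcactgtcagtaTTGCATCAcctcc
Sars: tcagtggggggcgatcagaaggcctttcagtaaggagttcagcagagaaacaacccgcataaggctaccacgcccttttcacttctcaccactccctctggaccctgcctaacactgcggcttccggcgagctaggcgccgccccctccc
Sars2: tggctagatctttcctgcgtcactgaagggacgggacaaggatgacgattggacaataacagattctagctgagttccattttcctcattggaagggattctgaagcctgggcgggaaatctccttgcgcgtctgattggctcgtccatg
Asns: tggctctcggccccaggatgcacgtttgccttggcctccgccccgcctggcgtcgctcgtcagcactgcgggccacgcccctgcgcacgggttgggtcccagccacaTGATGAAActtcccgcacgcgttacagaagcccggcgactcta
On GRCm38.p6 the windows are chr6:55037871-55038020 (plus strand) for Gars, chr4:129189773-129189922 (plus strand) for Yars, chr15:11399639-11399788 (minus strand) for Tars, chr8:111033712-111033861 (plus strand) for Aars, chr13:49682000-49682149 (plus strand) for Iars, chr3:108445240-108445389 (minus strand) for Sars, chr7:28741838-28741987 (plus strand) for Sars2 and chr6:7693190-7693339 (minus strand) for Asns. Counting the table's start site as 1, the match in Yars starts at base 4 on the gene's strand, that in Iars at base 8 and 1 of the 2 in Aars at base 10, both on the opposite strand. Upstream of the start, the match begins 15 bases before it in Tars, 30 in Gars and 112 in Aars, on the opposite strand, and 23 bases before it in Asns, on the gene's strand. For Yars, Aars and Sars2 this start site is not the outermost base of the gene's span in the RefSeq gene table but lies inside the span. A match is a description of the letters and no measure of binding.

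For the later steps, from charged tRNA to protein, counts are set against all tested genes, of which 17.7% rose and 41.8% fell. The 5 cytosolic elongation factor genes, whose products deliver charged tRNA and move the ribosome, all rose with SGFD (median log2 fold change 0.33); all 5 lay in the highest level bin, where 61.8% of genes rose. Eef1g was at 1141 ± 45.5 FPKM with SGFD and 882 ± 13.1 FPKM with CD (adjusted p = 4.29e-05), Eef1b2 at 682 ± 21.1 FPKM with SGFD and 541 ± 9.54 FPKM with CD (adjusted p = 6.16e-05), and Eef2 at 1973 ± 149.8 FPKM with SGFD and 1516 ± 44.9 FPKM with CD (adjusted p = 0.000228; limma, SD, n = 3 each). After quantile normalization 2 of the 5 rose, with a median of 0.07. Of 10 mitochondrial translation factors, 3 rose and 2 fell, with a median of -0.13 that became 0.10 after quantile normalization; the rise of Tufm, the mitochondrial elongation factor Tu, to 72.8 ± 6.06 FPKM with SGFD, against 58.7 ± 3.51 FPKM with CD (adjusted p = 0.00247), held in every alternative, and without CD replicate 3 it was the 1 rise left. The 3 subunits of the amidotransferase that makes mitochondrial glutaminyl-tRNA, Gatb, Gatc and Qrsl1, did not pass; without SGFD replicate 3, 1 of them fell.

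**Figure D4:**
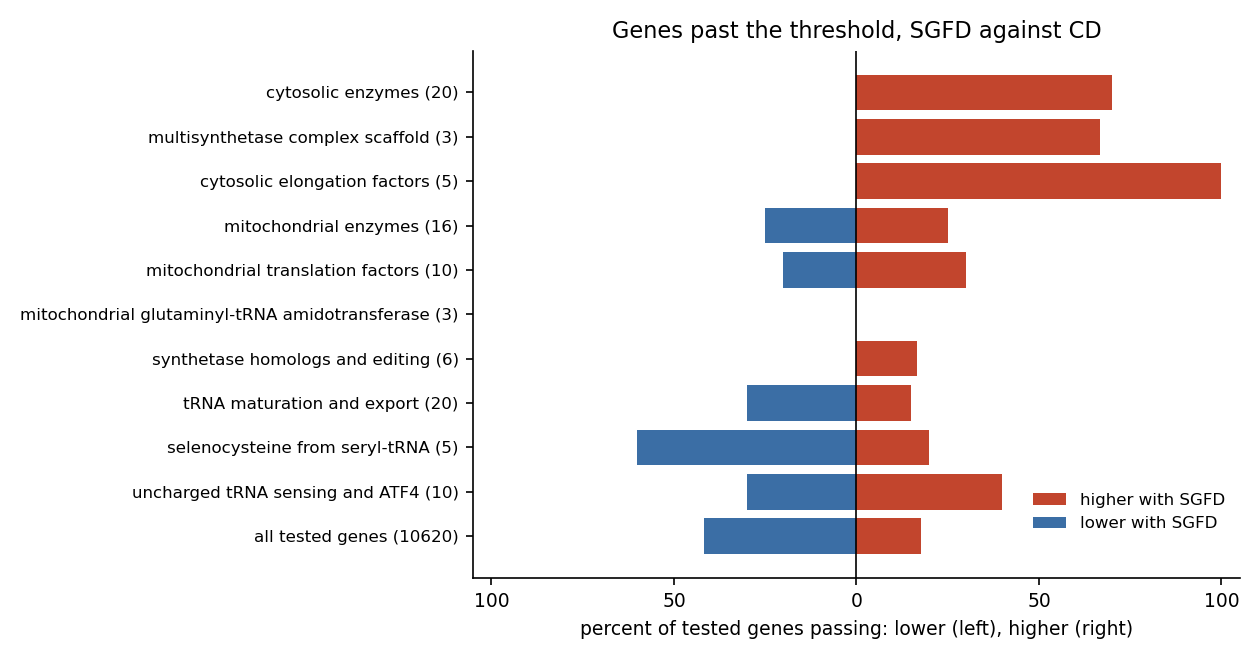
Percent of the tested genes in each list that passed the test, higher with SGFD to the right and lower with SGFD to the left of 0, with the number tested in parentheses. Of the cytosolic synthetases 14 of 20 rose and 0 fell, of the mitochondrial ones 4 of 16 rose and 4 fell, and of all tested genes 17.7% rose and 41.8% fell; after quantile normalization 10 cytosolic and 7 mitochondrial synthetases rose and 0 fell.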

How the data were processed

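Per the labels' protocols, RNA was extracted from the sorted cells with an RNeasy Micro kit and made into TruSeq Stranded mRNA libraries. Tools and builds named in the submitters' processing notes, all without versions, are fastp, HISAT2, StringTie, GRCm38 and mm10; other steps are not given in the sources used here. The authors deposited 1 value per gene and library. No label or header used here names the unit, and the deposited values were taken as FPKM. For all 15509 genes above 0 they came out as whole numbers of fragments, within 0.02, once divided by a step for that gene and library. Whole numbers alone cannot tell FPKM from other scaled counts, so the unit is an inference. The search also passed 6 of 300 genes with slightly altered values, and 0 at up to 10000 fragments. For very high genes the search can return a multiple of the true number, so the fragments, used to show depth, and the gene lengths they imply are fixed only up to a whole factor per gene.

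limma 3.58.1 (R 4.3.3; empirical Bayes with trend and robust settings) was run on log2(FPKM + 1). A gene was tested where 3 or more of the 6 libraries reached 1 FPKM. Fold changes on this scale, written as log2 fold changes of SGFD minus CD, understate those of low genes. P-values are two-sided, Benjamini-Hochberg adjusted over all 10620 genes tested. The fit was tested on simulated data with 200 of 10620 genes changed. It called 26.9% of the genes with an absolute log2 change of 0.25, 74.6% at 0.5 and 93.9% at 1. Of its calls, 2.3% were false. In the real libraries 59.4% of tested genes were called, so these shares may differ there. The members, lists and sublists were chosen with earlier results of these data known, so lists are described by counts and medians without a test. Per-library values are given for Sars, Sars2 and Gars, for the cytosolic and mitochondrial members with the largest and smallest fold changes, and for some genes of smallest p from each list; Farsb, Tars2, Vars2 and other members near the threshold were named after their values were seen. Positions and promoters come from RefSeq tables of GRCm38.p6, in which all 36 members had a position. The alternatives were other filters, pseudocounts, scalings, variance models, a replicate block and leaving out each library.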

Additional observations from a re-analysis of the deposited data

How the results depend on the processing

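Of 536 single-gene results of the 36 synthetases under 15 alternatives, 482 kept their side of the threshold. Of the rest, 41 lost their call, 12 gained one and 1 passed with the opposite sign. Among the 482, some genes that did not pass changed sign. Aars went from -0.035 to 0.086 after median-ratio scaling, and Mars2 from -0.124 to 0.135 after quantile normalization. Of the 18 genes that rose, 12 kept the call in every alternative, among them Sars, Sars2 and Gars; of the 4 that fell, 0 did. Quantile normalization changed most. Under it Nars2 turned to 0.22 (adjusted p = 0.0356, limma) and Rtcb, of the maturation list, to -0.01 (0.884), the cytosolic median was 0.132, the mitochondrial median 0.131 and their difference 0.001, 7 mitochondrial genes rose and 0 fell, and 2552 of all genes fell. After median-ratio scaling the cytosolic median was 0.295, the mitochondrial median 0.027, and 2932 of all genes rose and 2970 fell (49.7% of calls higher, 47.0% after quantile normalization, against 29.7% as deposited). With a 5 FPKM filter, which leaves out Ears2, Nars2, Pars2 and Wars2, the mitochondrial median was -0.005, the difference 0.176 and 2 mitochondrial genes fell; with array weights these were -0.025, 0.188 and 6. With 1 library left out, the mitochondrial median ranged from -0.093 to -0.031, the cytosolic median from 0.145 to 0.192, the difference from 0.2 to 0.281, and pairs with SGFD values all above CD numbered 8 to 11. The letters TGATGCAA instead of TGATGNAA lowered the share of all tested promoters with a match from 2.6% to 0.7%. In deviations from the diet means, rather than in levels, same-numbered libraries of the 2 diets correlated at -0.007, -0.227 and -0.133. With 3 libraries per diet, these values cannot decide whether the labels' replicate numbers pair the samples. With the replicate block, 11 cytosolic genes rose and 0 fell, 3 mitochondrial genes rose and 5 fell, and 1706 of all genes rose and 4087 fell. Depth limits Pars2 most, at 104 fragments in its lowest library, and a member that did not pass the test is not shown to be unchanged.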

Other observations

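Of 20 tested genes of 21 in the list of tRNA maturation and export, 3 rose (15%) and 6 fell (30%) with SGFD, against 17.7% and 41.8% of all tested genes, with a median log2 fold change of -0.05, which was 0.07 after median-ratio scaling and 0.01 after quantile normalization. Tsen15, Tsen34 and Tsen54, which encode subunits of the tRNA splicing endonuclease, the enzyme that removes introns from pre-tRNA, were among those that fell. Tsen15 was at 15.9 ± 0.607 FPKM with SGFD and 23.3 ± 0.523 FPKM with CD (SD, n = 3 each; limma, adjusted p = 3.7e-05), and Tsen34 at 11.8 ± 0.907 FPKM with SGFD and 15.4 ± 1.17 FPKM with CD (0.0027), and both calls held in every alternative. Tsen54 (adjusted p = 0.0163) lost its call without CD replicate 3 (0.0791) or SGFD replicate 1 (0.0688), and likewise under quantile normalization (0.238) and median-ratio scaling (0.149). Rpp30, a protein of ribonuclease P, which trims the 5′ end of pre-tRNA, rose to 21.0 ± 1.59 FPKM with SGFD, against 14.9 ± 1.604 FPKM with CD (adjusted p = 0.000762). Without CD replicate 3, 3 genes of the list fell.

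Selenocysteine is made on a tRNA first charged with serine by Sars. Of 5 genes of this route, 1 rose and 3 fell, where 17.7% of all tested genes rose and 41.8% fell. Eefsec did not pass (log2 fold change -0.09, adjusted p = 0.219, limma). Sephs2, which makes the selenium donor, rose to 46.4 ± 2.62 FPKM with SGFD, against 40.3 ± 0.778 FPKM with CD (SD, n = 3 each; limma, adjusted p = 0.00692). Sepsecs, which converts the phosphoseryl-tRNA, fell to 3.07 ± 0.354 FPKM with SGFD, against 4.76 ± 0.708 FPKM with CD (0.00271), a call lost after quantile normalization (0.0938). Pstk, which phosphorylates the seryl-tRNA, fell to 8.53 ± 0.896 FPKM with SGFD, against 10.3 ± 1.14 FPKM with CD (0.0436), lost without CD replicate 1 (0.184), CD replicate 3 (0.0615) or SGFD replicate 1 (0.171), with the replicate block (0.0877), and after median-ratio scaling (0.249) or quantile normalization (0.688). Secisbp2, which binds the selenocysteine insertion element, fell to 12.4 ± 1.90 FPKM with SGFD, against 15.4 ± 0.587 FPKM with CD (0.0155), a call lost under quantile normalization (0.118) and median-ratio scaling (0.0923), and when CD replicate 3 (0.057) or SGFD replicate 1 (0.064) or 3 (0.0507) was left out. These are low or moderately expressed genes apart from Sephs2, and the part of expression level in their falls was not tested.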
